A study of Mus musculus with 4 samples.

Results

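The miR-30 family guide strands are the 5 mature miRNAs mmu-miR-30a-5p, mmu-miR-30b-5p, mmu-miR-30c-5p, mmu-miR-30d-5p and mmu-miR-30e-5p, taken by name from the deposited table of counts and written below without the species prefix. All 5 were found among the 1809 miRNAs listed for all 4 libraries. The libraries were small RNA of exosome preparations, precipitated with ExoQuick from plasma of C57BL/6 mice. The plasma dated from 21 days after injection of LLC cells into a vein. LLC (Lewis lung carcinoma) is a transplantable mouse lung tumour line, and every mouse of both genotypes carried it. The tested mice were gp49B-/- (gp49B KO), lacking an inhibitory receptor of myeloid cells, and the controls were wild type (WT). Each genotype had 2 libraries, numbered pool 1 and pool 2. Each KO library pooled 4 plasma samples and each WT library 3, so that the animals behind a library cannot be told apart. The age of the mice was not given in the labels, and none of the 4 libraries came from mice without tumour cells.

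A miRNA hairpin is cut into a duplex, of which the guide strand is loaded into Argonaute and the passenger strand is mostly discarded. The guide finds its target mRNAs mainly by pairing through its seed, bases 2 to 8. In the miR-30 family the guide is the 5p strand, and its members share 1 seed. The family is widely expressed, with high levels in kidney, heart, lung and other tissues, and is known for holding back the epithelial to mesenchymal transition, for targeting the autophagy gene Beclin 1 and for maintaining kidney podocytes.

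Mature sequences were read from RefSeq (GRCm38.p6), where 3 of the 5 members had an entry. They are shown because the shared seed makes them a family and because their small differences decide to which member a read is counted. Capitals mark the seed, and the last of the lines is miR-384-5p, a miRNA of another name with the same seed.
miR-30a-5p: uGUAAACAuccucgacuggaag
miR-30e-5p: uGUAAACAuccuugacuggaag
miR-30c-5p: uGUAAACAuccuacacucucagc
miR-384-5p: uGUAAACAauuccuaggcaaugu

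Positions count from 1 at the 5′ end. Between miR-30a-5p and miR-30e-5p there was 1 difference, C13U, with the base of miR-30a-5p first. The 3 members had their first 12 bases in common, and miR-384-5p shared only the first 8 with them. Among 1679 mature mouse miRNAs with a sequence, these 4 were the ones with this seed. With 1 base between them, the split of reads between miR-30a-5p and miR-30e-5p is uncertain, since the sources do not say how mismatched reads were counted. The members without an entry are miR-30b-5p and miR-30d-5p.

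By the deposited loci (GRCm38) the members come from 3 chromosomes. On chromosome 1, miR-30a-5p (chr1:23272274-23272295, plus strand) lies in no other GENCODE gene and 19418 bases before a copy of miR-30c-5p (chr1:23291714-23291736, plus strand) within an exon of Gm27028, a long noncoding RNA. The other copy of miR-30c-5p (chr4:120769584-120769606, minus strand) and miR-30e-5p (chr4:120772660-120772681, minus strand) lie 3053 bases apart in introns of Nfyc, which encodes a subunit of the transcription factor NF-Y. On chromosome 15, miR-30b-5p (chr15:68337469-68337490, minus strand) lies outside other genes and 3766 bases from miR-30d-5p (chr15:68341257-68341278, minus strand), which is within an exon of Gm20732, also a long noncoding RNA. The copies of miR-30c-5p give the same mature sequence, so its count is the sum of both loci.

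Counts are of unique molecular identifiers (UMIs), which tag single molecules before amplification. Over the 1809 miRNAs the KO libraries held 1709669 (pool 1) and 3630249 (pool 2) UMIs, and the WT libraries 1577749 and 3170219. Pool 1 libraries had 5.29 to 5.70 reads per UMI and pool 2 libraries 1.69 to 2.11, so the sequencing differed by pool number, and the smallest count above 0 was 10 in pool 1. The middle miRNA had 31 to 47 UMIs. Red blood cell miRNAs (5 of 5 found) took 7.94% and 17.8% of miRNA UMIs in KO, against 10.6% and 18.4% in WT, and liver miRNAs (4 of 4) 7.37% and 20.2% in KO against 11.2% and 27.2% in WT, in each case pool 1 and then pool 2. None of the marker miRNAs searched was at 0 in any library. Intervals below are exact 95% intervals and cover counting error only. In the separate file of WT pool 2 the count column bears the name of WT pool 1, and the column name for KO pool 2 is likewise at odds with its label, but the counts were equal to the columns of the table of all libraries, which was used. The mRNA of gp49B was not measured, so the genotype was not checked. Nothing in the labels says whether the pools shared mice or cages, so p-values measure the spread between these libraries.

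The first question was how much of the plasma miRNA the family made up and which member led. The 5 guide strands summed to 2.43% (2.41 to 2.45) and 1.58% (1.57 to 1.60) of miRNA UMIs in KO pools 1 and 2, against 1.86% (1.84 to 1.88) and 1.73% (1.72 to 1.75) in WT pools 1 and 2. Both WT values thus lay between the KO values. The order of the members was the same in all 4 libraries: miR-30d-5p, miR-30a-5p, miR-30e-5p, miR-30c-5p and miR-30b-5p.

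The most abundant member, miR-30d-5p, had 21109 and 23483 UMIs in KO pools 1 and 2, against 12970 and 24383 in WT pools 1 and 2. As a share of miRNA UMIs this was 1.23% and 0.647% in KO, against 0.822% and 0.769% in WT. It ranked 15 and 17 among the 1809 miRNAs in KO, and 17 and 14 in WT. KO pool 1 stood highest and KO pool 2 lowest by share, so the WT libraries lay inside the range of the KO libraries.

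For miR-30a-5p, known for its site in Beclin 1, the counts were 11309 and 19577 UMIs in KO, against 8716 and 18176 in WT. Its shares were 0.661% and 0.539% in KO and 0.552% and 0.573% in WT, again with KO pool 1 highest and KO pool 2 lowest. The third, miR-30e-5p, is expressed from the Nfyc intron and had 7999 and 12791 UMIs in KO, against 6744 and 10648 in WT. Here the shares were 0.468% and 0.352% in KO and 0.427% and 0.336% in WT, so that both pool 1 libraries lay above both pool 2 libraries and KO above WT within each pool number.

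The other two were rare. miR-30c-5p had 756 and 1045 UMIs in KO, against 585 and 986 in WT, or 0.0442% and 0.0288% of miRNA UMIs in KO and 0.0371% and 0.0311% in WT. miR-30b-5p, although encoded beside the leading member, had 385 and 643 UMIs in KO, against 277 and 683 in WT, or 0.0225% and 0.0177% in KO and 0.0176% and 0.0215% in WT. Their shares overlapped between genotypes, and the lowest of their ranks was 161.

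**Figure D1:**
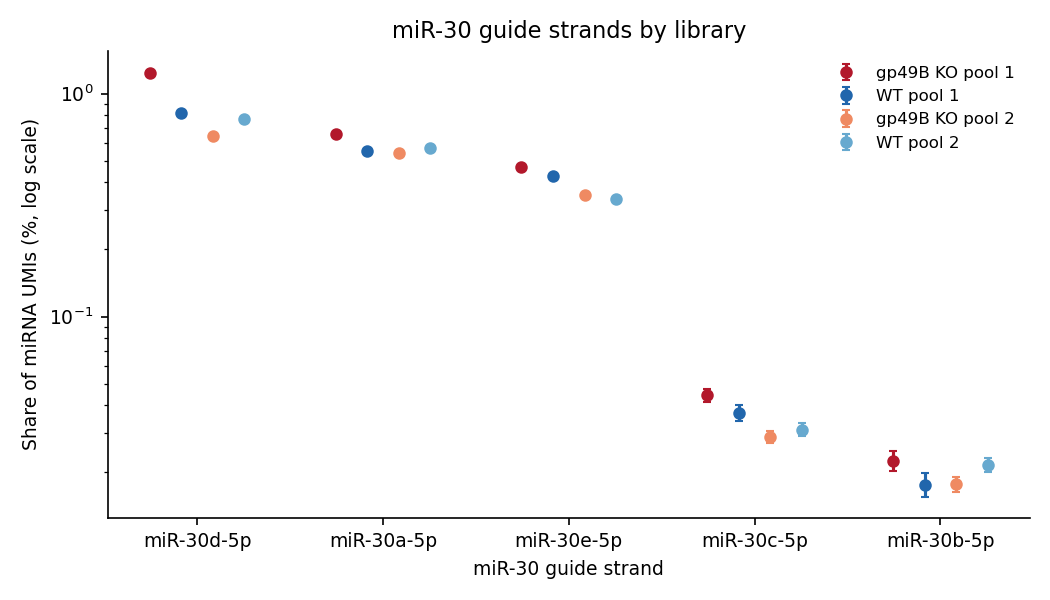
Share of miRNA UMIs (%, log scale) of each miR-30 guide strand in each of the 4 libraries, with exact 95% intervals for counting error. The members fall into 3 abundant ones, between 0.336% and 1.23%, and 2 rare ones, between 0.0176% and 0.0442%, in both genotypes.

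Neighbours in that order can be compared within a library, free of any scaling between libraries. The miR-30d-5p count was 1.87 and 1.20 times that of miR-30a-5p in KO pools 1 and 2, against 1.49 and 1.34 times in WT pools 1 and 2. The ratio of miR-30a-5p to miR-30e-5p was 1.41 and 1.53 in KO, against 1.29 and 1.71 in WT. That of miR-30c-5p to miR-30b-5p was 1.96 and 1.63 in KO, against 2.11 and 1.44 in WT. Every one of these intervals lay above 1, the closest being 1.18 to 1.22 for miR-30d-5p over miR-30a-5p in KO pool 2, so the order held beyond counting error in each library.

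Members of 1 locus did not have like levels. By these counts the chromosome 15 pair differed most: miR-30d-5p had 54.8 and 36.5 times the UMIs of miR-30b-5p in KO, against 46.8 and 35.7 times in WT. The count of miR-30c-5p sums its copies on chromosomes 1 and 4, so a ratio to it is only a lower bound for 1 locus. From the Nfyc intron, miR-30e-5p had 10.6 and 12.2 times the UMIs of miR-30c-5p in KO, against 11.5 and 10.8 times in WT. On chromosome 1, miR-30a-5p had 15.0 and 18.7 times the UMIs of miR-30c-5p in KO, against 14.9 and 18.4 times in WT. The ratio of miR-30a-5p to miR-30c-5p was higher in both pool 2 libraries than in both pool 1 libraries, with KO close to WT within each pool number. Small RNA ligation favours some end sequences over others, which limits what a ratio between 2 miRNAs of 1 library says of molecules in plasma.

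The make-up of the family differed most between the 2 KO libraries. Of the summed guide strands, miR-30d-5p made up 50.8% (50.3 to 51.3) and 40.8% (40.4 to 41.2) in KO pools 1 and 2, against 44.3% (43.7 to 44.8) and 44.4% (44.0 to 44.8) in WT pools 1 and 2. The WT libraries thus had close to the same share, and the KO libraries lay on either side of it. The share of miR-30a-5p was 27.2% and 34.0% in KO, against 29.8% and 33.1% in WT, lower in both pool 1 libraries. That of miR-30e-5p was 19.2% and 22.2% in KO, against 23.0% and 19.4% in WT, and that of miR-30c-5p stayed between 1.80% and 1.997% in all 4. No member's share separated the genotypes.

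**Figure D2:**
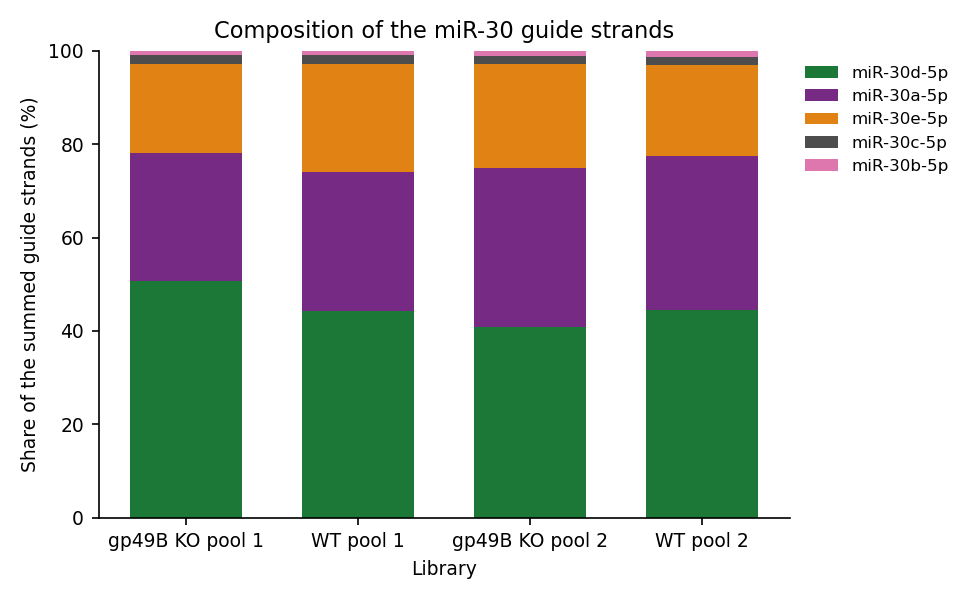
Share (%) of each member in the summed miR-30 guide strands, 1 stacked bar per library. miR-30d-5p runs between 40.8% and 50.8%, highest in KO pool 1 and lowest in KO pool 2, and miR-30b-5p and miR-30c-5p together are a thin band at the top.

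The main comparison asked whether any guide strand differed between gp49B KO and WT, and none of the 5 passed the test. Counts were scaled with TMM, which sets libraries on the bulk of miRNAs, and tested with edgeR's quasi-likelihood test, two-sided, with p adjusted over all 1797 miRNAs tested. In CPM (UMIs scaled to a common library size by TMM), miR-30d-5p averaged 8839 ± 878 for KO and 9125 ± 6050 for WT (SD over 2 libraries each). Its log2 fold change was -0.046 (SE 0.85, edgeR adjusted p = 0.99995). miR-30a-5p averaged 6144 ± 2463 CPM in KO and 6624 ± 4762 in WT, a log2 fold change of -0.11 (SE 0.85). For both, the SD within WT on the TMM scale was larger than the difference between the means.

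For miR-30e-5p the log2 fold change was -0.018 (SE 0.78), with 4133 ± 1442 CPM in KO and 4187 ± 2357 in WT. miR-30c-5p averaged 358 ± 89.6 CPM in KO and 380 ± 229 in WT, a log2 fold change of -0.088 (SE 0.63). miR-30b-5p averaged 204 ± 77.2 CPM in KO and 239 ± 192 in WT, a log2 fold change of -0.23 (SE 0.67). All 5 had the same edgeR adjusted p, 0.99995, and the lowest unadjusted p among them was 0.743. The median log2 fold change of the members was -0.088, beside -0.026 over all tested miRNAs. Over all miRNAs the background was also empty: edgeR called 0% higher and 0% lower at the 0.05 threshold. Before adjustment 32 had p under 0.05, and DESeq2 and limma-voom, which also called 0, had 28 and 27. The fit had genotype alone, so differences between pool numbers entered its standard errors. With standard errors of 0.63 to 0.85, differences of the size seen were not detectable with these 4 libraries, and 2 libraries against 2 cannot go below a two-sided exact permutation p of 0.333.

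By TMM-scaled level the genotypes overlapped for every member. WT pool 1 was lowest and WT pool 2 highest in all 5, with both KO libraries between them. miR-30d-5p stood at 8217 and 9459.6 CPM in KO, against 4847 and 13403 in WT, and miR-30b-5p at 149.9 and 259 CPM in KO, against 104 and 375 in WT. That order belongs to the TMM scale, whose factors were 1.70 and 0.574 in WT pools 1 and 2. By share of miRNA UMIs, the WT values of miR-30d-5p lay between the KO values instead. How many of all miRNAs have the TMM order was not counted. Over the 1780 tested miRNAs with counts above 0 in all libraries, 9.55% had both KO above both WT and 11.5% both KO below both WT, and among the members the count was 0 in either direction. With single libraries deciding the means, the sign turned in all 5 without WT pool 2, to log2 fold changes of 0.71 to 0.98, and without KO pool 1, to 0.072 to 0.32, and edgeR called none of the 5 in either case. Scaled on total UMIs it also turned in all 5, to 0.041 to 0.24.

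Taken within each pool number, the direction turned with the pool. In pool 1 all 5 guide strands were higher in KO than in WT, where 49.3% of the 1780 were, and in pool 2 all 5 were lower in KO, where 52% were. Among the 352 miRNAs averaging at least 100 UMIs, as the members do, the shares were 62.5% and 54%. The largest contrast was that of miR-30d-5p, whose KO over WT ratio was 1.70 in pool 1 (1.66 to 1.73) and 0.706 in pool 2 (0.693 to 0.719). For miR-30b-5p it was 1.45 (1.24 to 1.70) and 0.690 (0.619 to 0.770), for miR-30a-5p 1.35 (1.31 to 1.39) and 0.789 (0.774 to 0.805), and for miR-30c-5p 1.35 (1.21 to 1.50) and 0.777 (0.711 to 0.848). The smallest was that of miR-30e-5p, at 1.24 (1.20 to 1.28) and 0.880 (0.858 to 0.903). Each ratio compares 1 library with 1 library and has no replicate check.

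The members' median ratio was 1.35 in pool 1 and 0.777 in pool 2, beside 0.994 and 0.989 over all 1780 miRNAs. Higher in pool 1 and lower in pool 2 were 24.8% of all 1780, and 31.8% of the 352 averaging at least 100 UMIs, a class that all 5 members belong to. The members share a seed and, in pairs, a locus, and come from the same libraries, so their 5 ratios are not separate observations. TMM factors ran from 0.574 to 1.70, so the scaling was large. With total miRNA UMIs as the scale in place of TMM, the median ratio of all miRNAs moved to 0.880 in pool 1 and 1.18 in pool 2. On that scale 5 of 5 were still higher in KO in pool 1 and 4 of 5 lower in pool 2, miR-30e-5p having 1.09 and 1.05. Of all miRNAs 34.6% were higher in pool 1, 31% lower in pool 2 and 10.2% both. Of the 352 averaging at least 100 UMIs, 44.9% were higher in pool 1 and 25.3% lower in pool 2. Set against the median of all miRNAs, which no scaling changes, miR-30d-5p stood at 1.71 and 0.714, miR-30b-5p at 1.46 and 0.698, miR-30a-5p at 1.36 and 0.798, miR-30c-5p at 1.35 and 0.786, and miR-30e-5p at 1.24 and 0.890.

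**Figure D3:**
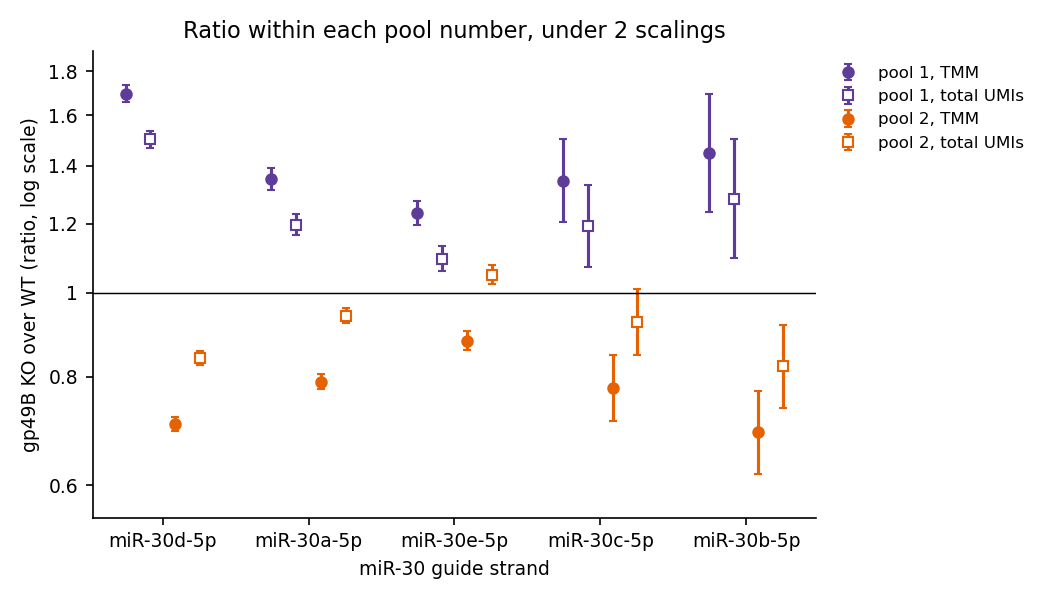
Ratio of gp49B KO over WT (log scale) for each guide strand within pool 1 and pool 2, scaled by TMM (filled) or by total miRNA UMIs (open), with exact 95% intervals for counting error. Pool 1 ratios lie above 1 and pool 2 ratios below 1 with TMM. With total UMIs the pool 2 ratio of miR-30e-5p is 1.05.

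**Figure D4:**
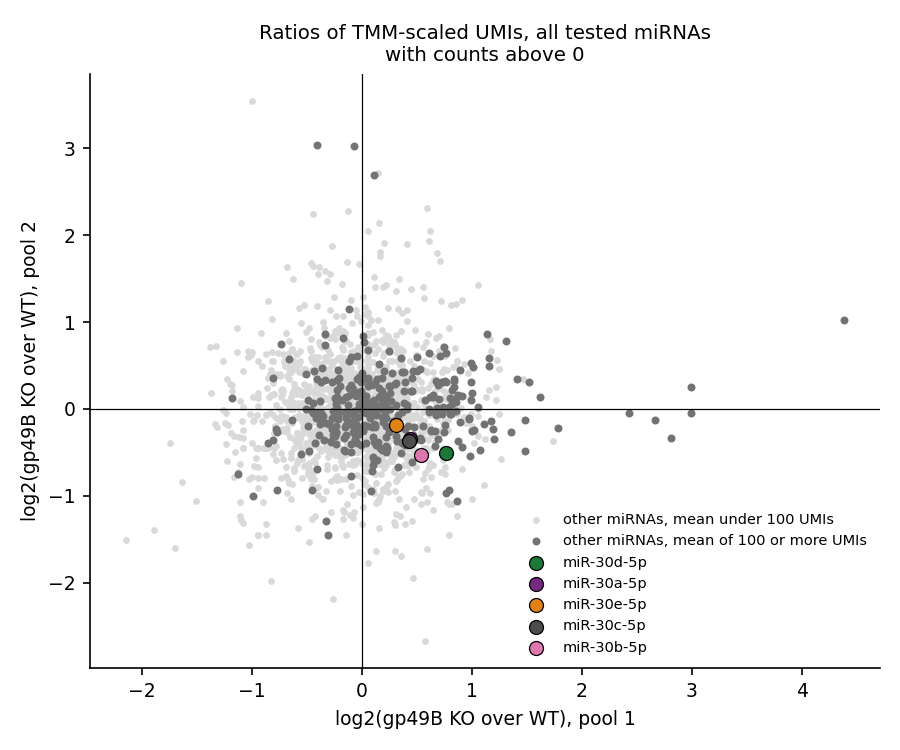
log2 of the gp49B KO over WT ratio in pool 2 against that in pool 1, each point 1 of 1780 tested miRNAs with TMM scaling. The 5 guide strands lie close together in the lower right part, higher in KO in pool 1 and lower in pool 2, within the cloud of the other miRNAs, and the points of miR-30a-5p and miR-30c-5p overlap.

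Marker miRNAs of other sources were set beside these ratios, each as KO over WT with TMM unless named otherwise. The 4 markers of myeloid cells and platelets (miR-223-3p, miR-223-5p, miR-142a-3p and miR-126a-3p, none at 0) had a summed ratio of 2.32 (2.29 to 2.35) in pool 1, with 4 of 4 above 1, and of 0.813 (0.802 to 0.823) in pool 2. Of these, miR-126a-3p is also an endothelial miRNA. In pool 2 miR-223-3p stood at 0.717 and miR-126a-3p at 0.740, while the intervals of miR-223-5p (0.807 to 1.06) and miR-142a-3p (0.976 to 1.02) included 1. With total UMIs 2 of the 4 were above 1 in pool 2, miR-142a-3p at 1.19 and miR-223-5p at 1.10. The 4 markers took 5.13% and 1.29% of miRNA UMIs in KO, against 2.50% and 1.33% in WT. The 5 epithelial markers of kidney and gut, tissues where miR-30 is abundant, summed to ratios of 1.15 (1.11 to 1.20) and 0.920 (0.888 to 0.953). Their shares were 0.307% and 0.196% in KO and 0.301% and 0.179% in WT. In both pools 4 of the 5 were above 1, and miR-194-5p, the most abundant, was below it at 0.787 and 0.783. In pool 2 miR-200c-3p stood at 1.16 and miR-141-3p at 1.35. There the intervals of miR-200a-3p, at 1.00 (0.922 to 1.09), and miR-200b-3p, at 1.02 (0.886 to 1.17), included 1. The 4 muscle miRNAs had summed ratios of 10.4 and 1.35. All 4 were above 1 in pool 1, but in pool 2 only miR-206-3p was, at 2.03, with miR-1a-3p at 0.969, miR-133b-3p at 0.914 and miR-133a-3p at 0.790. Summed ratios were 0.743 and 0.623 for the liver list and 0.843 and 0.809 for the red blood cell list, with 0 of 4 and 0 of 5 above 1 in pool 1, and 0 of 4 and 1 of 5 in pool 2. These pool 2 counts depended on the scaling: with total UMIs 3 of 4 muscle, 2 of 4 liver and 3 of 5 red blood cell markers were above 1. The part of any of these sources in the miR-30 ratios was not tested. In such preparations more vesicles from a tissue and more miRNA per vesicle cannot be told apart.

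By the measure of likeness used, the Euclidean distance between centred log2 CPM profiles over the 4 libraries, the 5 miRNAs nearest to the mean profile of the family were miR-323-5p (distance 0.127), miR-339-5p (0.136), miR-342-3p (0.137), miR-28a-3p (0.150) and miR-186-5p (0.226). They were drawn from 346 other miRNAs averaging at least 100 UMIs, whose median distance was 0.990. The members themselves lay 0.150 to 0.301 from their own mean, miR-30d-5p farthest. The most abundant of the 5, miR-342-3p, had 14460 and 23971 UMIs in KO, against 11728 and 23029 in WT, with ratios of 1.28 and 0.763 within pools 1 and 2. With 4 libraries such likeness is a description only.

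For pool number the estimates were larger than for genotype on the TMM scale, though not past the threshold. All 5 guide strands were higher in both pool 2 libraries than in both pool 1 libraries, where 28.5% of all miRNAs were. In an edgeR quasi-likelihood fit with genotype and pool number, the log2 fold change of pool 2 over pool 1 was 1.23 (SE 0.32, adjusted p = 0.0925) for miR-30a-5p and 1.32 (SE 0.35, adjusted p = 0.0957) for miR-30b-5p. It was 0.97 for miR-30e-5p, 0.91 for miR-30c-5p and 0.84 for miR-30d-5p, with edgeR adjusted p of 0.114, 0.153 and 0.241. None of the 5 passed, where 1.95% of all 1797 miRNAs were called higher. Scaled on total UMIs all 5 estimates were lower in pool 2, between -0.51 and -0.027, while the median of all miRNAs on that scale was -1.37 against -0.028 with TMM. The sign of the pool difference thus turned with the scaling.

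Within genotypes the pool difference was unequal. On the TMM scale pool 2 over pool 1 was 1.43 (1.41 to 1.45) in KO and 2.76 (2.72 to 2.80) in WT for the summed guide strands. It was 1.15 in KO and 2.77 in WT for miR-30d-5p, and 1.65 in KO and 2.32 in WT for miR-30e-5p. On total UMIs the summed strands had 0.652 in KO and 0.932 in WT, so KO was the lower of the genotypes under both scalings. These values restate the KO over WT ratios within pools 1 and 2 in another form and are no separate result.

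The passenger strands and related miRNAs were next compared, 8 in all, each listed and each tested. The passenger of miR-30a was the only well-counted one. miR-30a-3p had 589 and 900 UMIs in KO, against 381 and 839 in WT, with KO over WT ratios in pools 1 and 2 of 1.61 (1.41 to 1.84) and 0.786 (0.715 to 0.865), on the same sides of 1 as its guide. The others had 20 to 114 UMIs, near the level of the middle miRNA of a library. None of the 8 was called in either direction (edgeR, adjusted p = 0.99995 for each), 5 were higher in KO in pool 1 and 1 in pool 2, and their median ratios were 1.11 and 0.778.

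miR-30b-3p was the only one of the 8 with both KO below both WT, where 11.5% of all 1780 were, at 18.3 and 10.9 CPM in KO, against 29.1 and 19.2 CPM in WT. These rest on 47 and 27 UMIs in KO, against 78 and 35 in WT. Its log2 fold change was -0.74 (SE 0.44, edgeR adjusted p = 0.99995). The seed sharer miR-384-5p, which is known from brain, had 76 and 41 UMIs in KO, against 86 and 34 in WT. miR-30f is named for the family, but its bases 2 to 8 differ by a shift of 1 base from those of the members, and its locus overlaps that of miR-30e-3p on the other strand by 19 bases. It had 58 and 40 UMIs in KO, against 61 and 21 in WT. These 2 loci of opposite strand have largely complementary products, which are shown for that reason with bases 2 to 8 in capitals.
miR-30f: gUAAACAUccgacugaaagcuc
miR-30e-3p: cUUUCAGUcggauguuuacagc
miR-30a-3p: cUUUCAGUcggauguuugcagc

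The last line is given because miR-30a-3p and miR-30e-3p differ by 1 base, G18A from miR-30a-3p to miR-30e-3p, so their counts too can be split between them. Despite that, miR-30a-3p had 7.01 and 8.49 times the UMIs of miR-30e-3p in KO, against 4.95 and 7.36 times in WT.

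How far the guide outnumbered its passenger differed by hairpin far more than by genotype. For miR-30d the 5p strand had 639.7 and 618 times the UMIs of the 3p strand in KO, against 648.5 and 739 times in WT. The intervals all lay between 419.7 and 1074. For miR-30e the ratio was 95.2 and 121 in KO, against 87.6 and 93.4 in WT. For miR-30a it was 19.2 and 21.8 in KO, against 22.9 and 21.7 in WT. Both KO values lay below both WT values for miR-30d and above them for miR-30e, but the intervals of KO and WT overlapped in all 3 hairpins. Counted by reads, miR-30d had 854 and 719 in KO, against 683 and 748 in WT, so the genotypes then overlapped. By reads miR-30e had 108 and 114 in KO, against 93.7 and 93.4 in WT, so KO stayed above WT, with overlapping intervals. How many other hairpins separate the genotypes in this way was not counted. The lowest miR-30d ratio was 27.0 times the highest miR-30a ratio.

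The 2 rare guides behaved otherwise. For miR-30b the ratio was 8.19 (6.04 to 11.3) and 23.8 (16.2 to 36.4) in KO, against 3.55 (2.75 to 4.63) and 19.5 (13.9 to 28.3) in WT. For miR-30c, with both hairpins together, it was 6.81 (5.57 to 8.39) and 15.8 (12.3 to 20.6) in KO, against 5.85 (4.72 to 7.31) and 15.4 (12.0 to 20.2) in WT. In both the pool 1 libraries lay below the pool 2 libraries with no overlap of intervals. The 3p counts behind the pool 1 values were 32 to 78 UMIs a strand, where the middle miRNA had 43 in KO pool 1 and 47 in WT pool 1, and what lies behind that level in pool 1 was not tested. Summed over the family the ratio was 48.1 and 50.6 in KO, against 44.7 and 50.6 in WT.

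**Figure D5:**
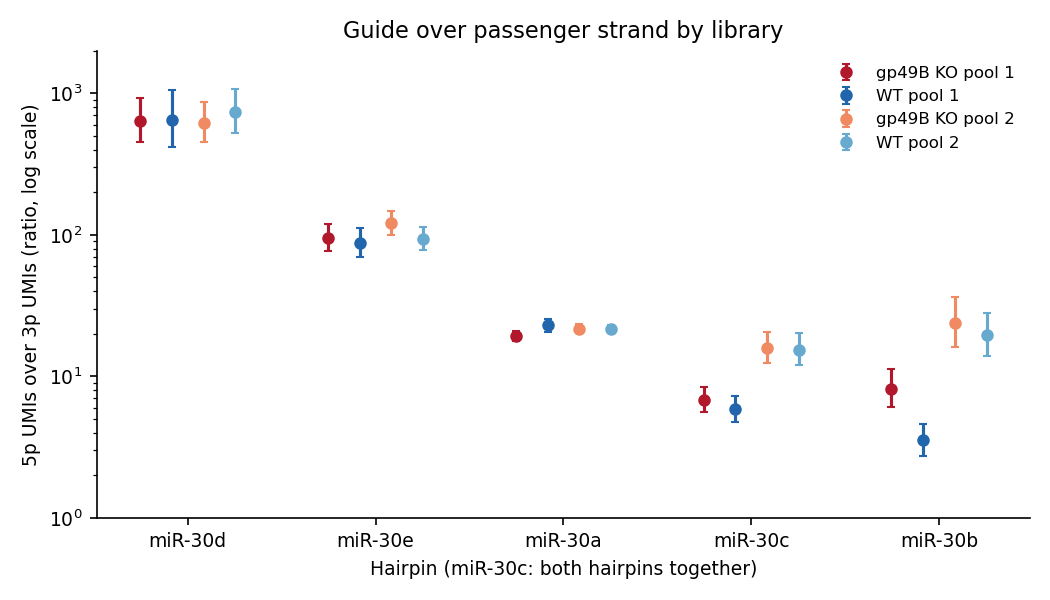
UMIs of the 5p strand over those of the 3p strand (log scale) for each hairpin and library, with exact 95% intervals for counting error. miR-30d, miR-30e and miR-30a each keep their own level in all 4 libraries, and miR-30c and miR-30b are lower in both pool 1 libraries.

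Reads per UMI served as a check on amplification. Over the guide strands it ran between 6.07 and 6.51 (KO pool 1) and between 2.14 and 2.24 (KO pool 2), and for WT between 5.80 and 6.26 (pool 1) and between 1.69 and 1.74 (pool 2). Members of 1 library thus had like values. In pool 1 these lay above the value over all miRNAs, 5.70 in KO and 5.29 in WT, and in pool 2 close to it, 2.11 in KO and 1.69 in WT. Counted by reads, the members' TMM ratios of KO over WT ran between 1.28 and 1.74 (pool 1) and between 0.704 and 0.888 (pool 2).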

How the data were processed

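Small RNA of plasma exosome preparations was sequenced in 4 libraries, 2 of gp49B KO and 2 of WT mice, with a kit that adds UMIs, per the labels' protocols. The authors deposited raw UMI counts and read counts per mature miRNA and piRNA, and log2 values. By the values, these log2 values, deposited by the authors, are log2 of the UMI count plus a constant for each library, with no statement of the scaling behind it. The submitters' processing notes name FastQC 0.11.9, GRCm38 and mm10. No aligner or counter is stated in what was used here.

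The 1809 miRNAs listed for all 4 libraries were kept, and piRNAs were left out. With edgeR's filter on low counts 1797 were tested. Libraries were scaled by TMM and genotypes compared with edgeR 4.0.16 (glmQLFit and glmQLFTest, R 4.3.3), with p adjusted by Benjamini-Hochberg over all tested miRNAs and a threshold of 0.05. The main design had genotype alone, and the fit for pool number had genotype and pool number. DESeq2 1.42.0 and limma 3.58.1 (voom), other scalings and filters, read counts, the deposited log2 values, the replicate block and leaving out each library were alternatives. Ratios within a pool number carry exact conditional 95% intervals, and shares exact Clopper-Pearson intervals (SciPy 1.17.1). Library totals were 1577749 to 3630249 UMIs.

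The named miRNAs were the 5 members, the 8 passenger strands and related miRNAs, and the 5 most alike profiles among those averaging at least 100 UMIs (log2 CPM with a prior count of 2). The members and lists were chosen with earlier results of these data known. Loci were annotated with GENCODE M21.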

Additional observations from a re-analysis of the deposited data

Results flagged for a closer look

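The KO over WT ratio (TMM) lay above 1 in pool 1 and below 1 in pool 2 for the 5 guide strands and miR-30a-3p. These are listed since their 95% intervals excluded 1 in both pools, a rule that favours well-counted miRNAs. For them the library pairs of pools 1 and 2 moved in opposite ways. The same directions held for miR-30c-1-3p (1.09 and 0.770), miR-30c-2-3p (1.30 and 0.733), miR-30d-3p (1.72 and 0.844) and miR-30e-3p (1.14 and 0.681). Their pool 1 intervals all included 1. Over all 1780 miRNAs 24.8% had these directions, and of the 352 averaging at least 100 UMIs 31.8%. With TMM scaling the ratio in pool 1 was 2.40 times that in pool 2 for miR-30d-5p, 2.10 times for miR-30b-5p, 2.05 times for miR-30a-3p, 1.73 times for miR-30c-5p, 1.71 times for miR-30a-5p and 1.40 times for miR-30e-5p. The difference between the pool numbers was not tested, since each ratio rests on 1 library of each genotype. With total UMIs as the scale, miR-30e-5p no longer had opposite directions, with ratios of 1.09 and 1.05, and the pool 2 intervals of miR-30c-5p (0.848 to 1.01) and miR-30a-3p (0.852 to 1.03) included 1.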

How the results depend on the processing

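No miR-30 guide strand was called between KO and WT under any of the 16 alternatives run, with adjusted p between 0.972 and 0.99999, but the sign of the small log2 fold changes depended on the setting. For miR-30a-5p, miR-30b-5p, miR-30c-5p, miR-30d-5p and miR-30e-5p in that order it turned to 0.093, 0.041, 0.098, 0.24 and 0.10 with total UMIs, and to 0.058, 0.011, 0.044, 0.14 and 0.072 with the authors' log2 values in limma. With limma-voom it turned to 0.0086, 0.012, 0.095 and 0.031 for all but miR-30b-5p, and with read counts to 0.0017 for miR-30d-5p and 0.021 for miR-30e-5p. Leaving out each library gave -0.68 to 0.92 for miR-30a-5p, -0.85 to 0.98 for miR-30b-5p, -0.58 to 0.71 for miR-30c-5p, -0.58 to 0.87 for miR-30d-5p and -0.48 to 0.71 for miR-30e-5p. The lowest was without WT pool 1 and the highest without WT pool 2, where the lone library of a group was assumed to vary like the others.

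The replicate numbers are shared between the genotypes, but the labels do not say that equal numbers were handled together. Reads per UMI differed by pool number, and deviations of the same-numbered libraries had a correlation of 0.527. The common dispersion, a measure of spread between libraries, was 0.127 without the replicate block and 0.0422 with it. The block left 1 residual degree of freedom. With the replicate block the log2 fold changes turned to 0.047 for miR-30a-5p, 0.030 for miR-30c-5p, 0.13 for miR-30d-5p and 0.061 for miR-30e-5p, and 0 miRNAs were called, with 78 at an unadjusted p under 0.05. With the replicate block and TMM taken from miRNAs averaging at least 100 UMIs, miR-30d-5p had 0.043, and 18 miRNAs were called, none of them a guide strand. Over all miRNAs leaving out each library gave 0 to 3 calls, 3 without KO pool 2 and 2 without WT pool 2.

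For pool 2 over pool 1, 1 guide strand was called when those averaging under 100 UMIs were left out, miR-30b-5p at 0.82 (edgeR adjusted p = 0.0202). Calls were common in that setting, where edgeR called 136 of all 352 miRNAs tested, 44 of them higher in pool 2. With total UMIs the log2 fold changes turned to -0.12, -0.027, -0.44, -0.51 and -0.38 in the order above. The KO over WT ratio of the summed strands in pool 1 was 1.31 with total UMIs, 1.51 with RLE and 1.52 by reads, and in pool 2 it was 0.916 with total UMIs, where miR-30e-5p turned to 1.05. Without miR-16-5p in the denominator the family's share was 3.45% and 2.22% in KO, against 2.87% and 2.30% in WT. Without the red blood cell list it was 2.64% and 1.93% in KO, against 2.08% and 2.12% in WT. By reads it was 2.70% and 1.62% in KO, against 2.06% and 1.75% in WT. The cause of these changes was not tested. With 2 libraries a group, each a pool, animals could not be compared, and passenger strands of low count have wide intervals.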
